A study of Rattus norvegicus with 22 samples.

Results

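The serotonin receptor genes were followed through cells cut by laser from the ventral horn of newborn rat spinal cords. Members were chosen by name: every probe set whose platform symbol was Htr1a, Htr1b, Htr1d, Htr1f, Htr2a, Htr2c, Htr3a, Htr5b, Htr6 or Htr7 was taken, whatever its signal. The table of 1050 probe sets held 12 of them, for 9 of the 10 genes. Htr2c, Htr3a and Htr7 had 2 probe sets each, the other 6 genes had 1 each, and no probe set carried the symbol Htr6. A probe set is a group of short oligonucleotides on the array that report on the same transcript, and each was kept apart.

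Samples of 3 kinds were hybridized, each array from another Wistar pup in the first postnatal days, with no drug or allele named in any group. Descending commissural interneurons (dCINs, CIN in the labels), whose axons cross the midline and run to more caudal segments, filled 7 arrays of 50 to 100 cells each. Motor neurons (MNs) filled 7 arrays of 55 to 250 cells each. Both were found by a rhodamine dextran tracer that had travelled back from cut axons to the cell bodies, so each group holds the cells that took up the tracer at that cut and is not 1 genetically defined type. The third group (MIX) filled 8 arrays with cells cut at random, 95 to 187 per array, from the ventral part of the same lumbar segment. The cords of both labelled groups lay for some hours in oxygenated Ringer solution with the tracer, which the paper does not state for the MIX cords. All RNA was amplified in a pair of rounds before hybridization to the RN_U34 array, a small Affymetrix array of neurobiology genes.

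Serotonin reaches the spinal cord in axons that descend from the raphe nuclei of the brainstem, and it excites the locomotor network of the newborn rodent cord. Nearly all of its receptors are coupled to G proteins: the Htr1 group to Gi and Go, which lower cAMP, the Htr2 group to Gq, which activates phospholipase C, and Htr6 and Htr7 to Gs, which raises cAMP. The signalling of Htr5b is less well known. Htr3a is the exception, since it encodes a subunit of a cation channel that serotonin opens directly.

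Signals of serotonin receptors ran from 10.3 to 178 on a linear intensity scale, in a table that reached from 1 to 8642 and whose array medians were 43.5 to 50.9. Group labels were checked on marker genes, each by the probe set named. Slc18a3 (U09211_at), the vesicular acetylcholine transporter of MNs, was 2692 to 5211 in MNs and 55.8 to 1133 in dCINs. Slc32a1 (AF030253_at), the vesicular transporter of GABA and glycine, was 352 to 762 in dCINs and 35.2 to 366 in MNs. A second probe set of each gene was not called (-0.30 for Slc18a3 and 0.09 for Slc32a1, log2 difference, dCIN minus MN). MN array 3 held the 366 and the next MN array 149, so this array stood within the dCIN range for Slc32a1 while its Slc18a3, 3941, was as in the other MN arrays. Summed over 8 astrocyte probe sets, signals were 5609 to 8747 in dCINs, 3552 to 6240 in MNs and 3641 to 9039 in MIX. Most of the sum in dCINs and MNs was 1 Apoe probe set (X04979_at), at 4235 to 6804 and 2573 to 4878. Of the 8, this alone was called, higher in dCINs. S100b and the second Apoe probe set had log2 differences of 0.53 and 0.79 without a call. Those of Slc1a2 and Slc1a3 were at -0.07 to 0.38, also without a call. The paper reports its Gfap probe sets on this array as unchanged between dCINs and MNs and very dim. From these and Mbp it proposes that glial contamination was minimal. No Gfap probe set was among those summed here. Oligodendrocyte (7), microglia (1) and serotonergic neuron (7) probe sets held no call, and vessel, Schwann cell and excitatory neuron markers were without a probe set. What part other cells had in the receptor results was not tested, and in such samples fewer cells of a type and less RNA per cell cannot be told apart.

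The first comparison asked which serotonin receptors differ between dCINs and MNs. Htr5b was higher in dCINs and Htr3a, by 1 of its 2 probe sets, was higher in MNs, each by about the same fold as deposited. With 32 added to every signal before log2, the differences, dCIN minus MN, were 0.43 for Htr5b and -0.55 for Htr3a (U01227_s_at). No difference was called for Htr1a, Htr1b, Htr1d, Htr1f, Htr2a, Htr2c, Htr7 or the second Htr3a probe set. Called here means a Benjamini-Hochberg adjusted p under 0.1 in limma over all 1050 probe sets, so 2 of 12 serotonin receptor probe sets were called, 16.7%, where 3.81% of all probe sets were called. By direction, 1 of 12 was higher in dCINs (2.38% of all probe sets) and 1 of 12 higher in MNs (1.43% of all). The median difference, dCIN minus MN, was 0.04 on the log2 scale over the 12 and -0.03 over all probe sets, and the median size of the difference was 0.11 over the 12 and 0.13 over all.

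**Figure D1:**
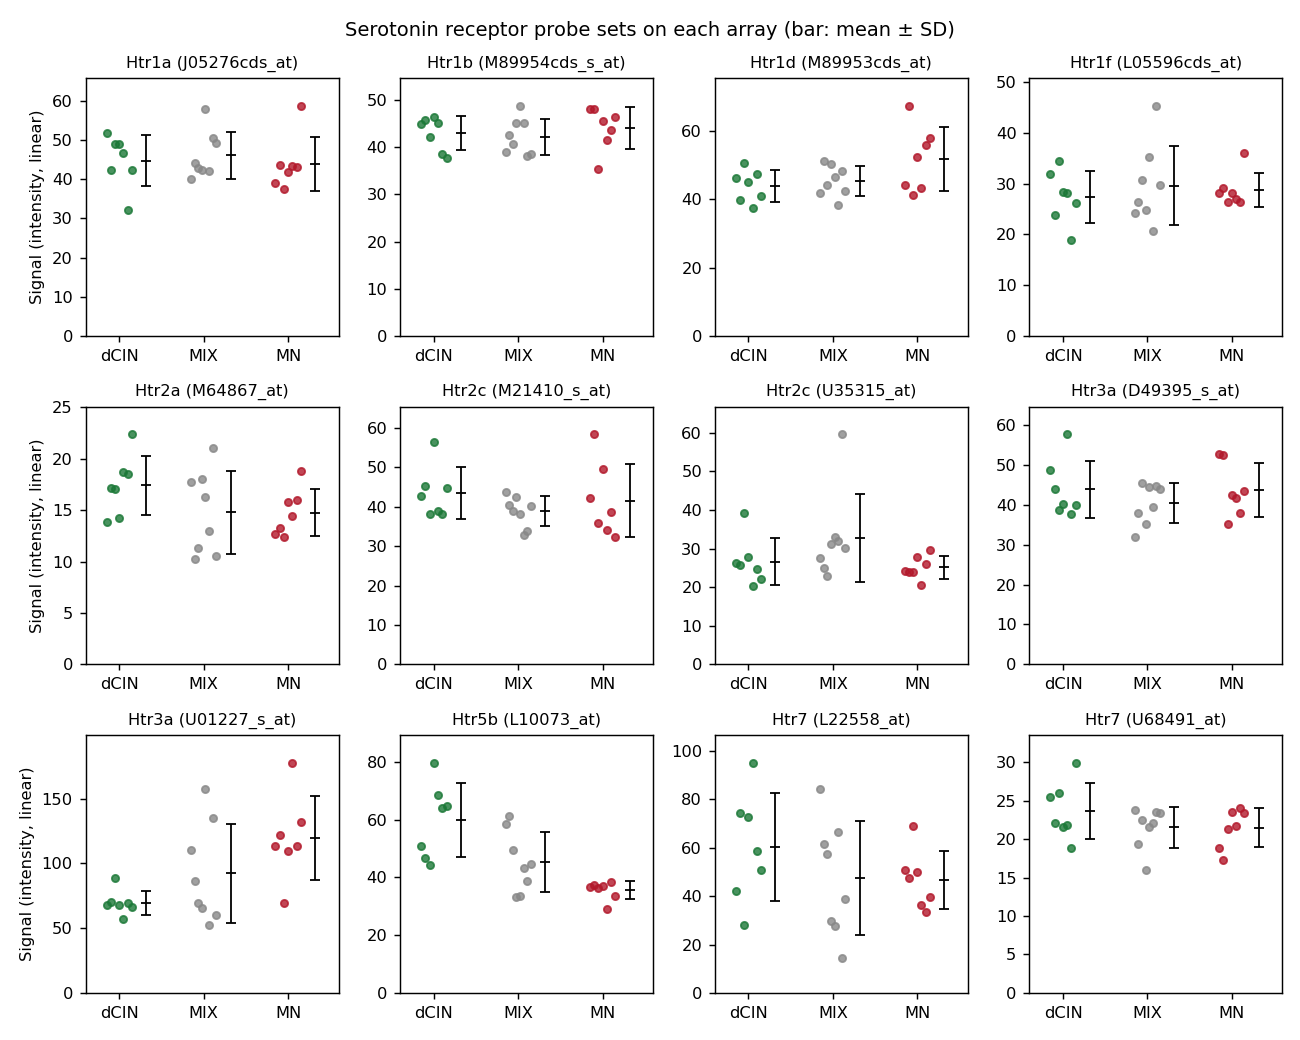
Signal (linear intensity) of each of the 12 serotonin receptor probe sets on every array of dCINs (n = 7), MIX (n = 8) and MNs (n = 7). Points are arrays and the bars beside them the mean ± SD. Htr5b shows dCIN arrays (44.4 to 79.7) above all MN arrays (29.3 to 38.4), the U01227_s_at probe set of Htr3a shows 6 MN arrays above all dCIN arrays, and in the other panels the groups overlap.

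Htr3a encodes the subunit that every channel of the serotonin-gated kind contains. On the probe set U01227_s_at the lowest, median and highest dCIN signals were 57.1, 68.0 and 88.6. In MNs they were 69.5, 114 and 178. Of the MN arrays 6 lay above every dCIN array, and 1, array 3, lay within the dCIN range at 69.5. That was also the MN array with the high Slc32a1 signal given above. Of the dCIN arrays 4 lay below every MN array, and array 3 was the highest of its group at 88.6. Over the 7 arrays of each group the mean ± SD was 69.6 ± 9.44 (dCINs) and 120 ± 32.1 (MNs). The log2 difference, dCIN minus MN, was -0.75 (SE 0.16, 95% interval -1.09 to -0.40), which is 1.68-fold higher in MNs. The limma adjusted p was 0.0153, rank 24 of all probe sets, and an exact permutation test over the 3432 ways to divide the 14 arrays gave p = 0.00233, two-sided. Among arrays numbered 1 and 2 the difference was -0.78, and among those numbered 3 to 7 it was -0.73.

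The second Htr3a probe set, D49395_s_at, did not show this difference. Its lowest, median and highest signals were 37.7, 40.1 and 57.6 in dCINs and 35.2, 42.5 and 52.6 in MNs, and the groups overlapped over nearly their whole range. The log2 difference was 0.00 (SE 0.12), with a 95% interval of -0.26 to 0.26. Changes of this signal beyond 1.20-fold either way lay outside that interval. In both groups its median lay below the array medians of 43.5 to 50.9, and dim values hold background. The interval therefore bounds this signal and sets no limit on the change of the transcript. Whether the 2 Htr3a probe sets differ from each other was tested within arrays, by the log2 ratio of D49395_s_at over U01227_s_at. That ratio was -0.67 ± 0.37 in dCINs (lowest -1.19, highest 0.01) and -1.42 ± 0.37 in MNs (lowest -2.09, highest -0.98; SD, n = 7 each). It differed by 0.75 between the groups (exact permutation test, two-sided, p = 0.00175, adjusted p = 0.00524 over the 3 genes with 2 probe sets). The group difference on U01227_s_at thus differed from that on D49395_s_at beyond the spread between arrays. Since D49395_s_at differed by 0.00, the ratio mostly carries the difference of U01227_s_at and is no separate evidence for it. The ratio of the Htr2c probe sets differed by 0.02 (adjusted p = 0.913, same exact test) and that of the Htr7 probe sets by 0.18 (adjusted p = 0.895). The sequences that these probe sets read were not used here.

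**Figure D2:**
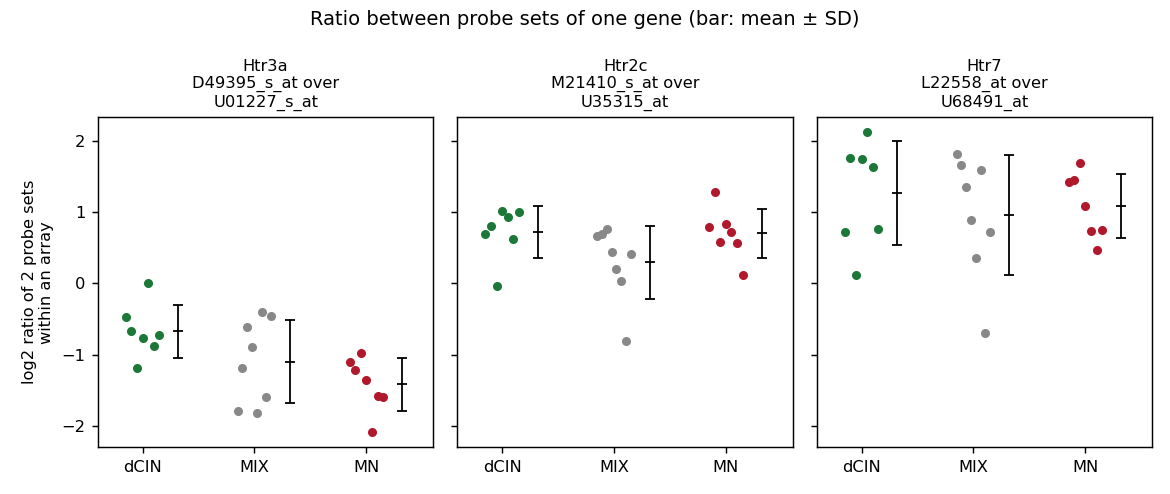
Log2 ratio between the 2 probe sets of Htr3a, Htr2c and Htr7 within each array of dCINs (n = 7), MIX (n = 8) and MNs (n = 7). Points are arrays and bars the mean ± SD. Only the Htr3a ratio stands apart between dCINs (mean -0.67) and MNs (mean -1.42), and the groups overlap between -1.19 (lowest dCIN array) and -0.98 (highest MN array).

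Htr5b encodes a G protein-coupled receptor that is intact in rodents and lost as a working gene in humans. Its probe set L10073_at had lowest, median and highest signals of 44.4, 64.1 and 79.7 in dCINs. In MNs they were 29.3, 36.8 and 38.4. The lowest dCIN array stood above the highest MN array, so the groups did not overlap; this held for 1 of the 12 serotonin receptor probe sets and for 1.62% of all probe sets. Over the 7 arrays of each group the mean ± SD was 59.9 ± 13.0 (dCINs) and 35.5 ± 3.13 (MNs), and the log2 difference was 0.73 (SE 0.13, 95% interval 0.45 to 1.01), a 1.66-fold higher signal in dCINs. With 32 added to every signal before log2 the difference was 0.43, still called (adjusted p = 0.00578). The limma adjusted p was 0.00370, rank 16, and the exact permutation test gave p = 0.000583, the smallest that 7 against 7 arrays allow.

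The dCIN arrays differed among themselves in Htr5b. The first 3 read 50.8, 46.7 and 44.4, and the remaining 4 read 79.7, 68.7, 64.1 and 64.8, while the highest MN array was 38.4. Among arrays numbered 1 and 2 the log2 difference was 0.39 and among those numbered 3 to 7 it was 0.86; taken alone, the former 4 arrays gave an adjusted p of 0.147 in limma, above the threshold. Slc18a3 was 1133, 1104 and 55.8 in dCIN arrays 1, 2 and 3. In dCIN arrays 4, 5, 6 and 7 it was 92.1, 390, 839 and 345. The part of motor neuron or astrocyte RNA in the Htr5b signal was not tested.

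Set against each other within an array, Htr3a over Htr5b was 0.832 to 1.99 in dCINs (median 1.08) and 1.91 to 6.07 in MNs (median 3.09). These ratios compare signals of different probe sets, so their size depends on the probes and only their change between arrays can be read. The groups met at their ends. The MN array at the low end, array 3, was the one with the lowest Htr3a signal of its group, and the dCIN array at the high end, also array 3, had the lowest Htr5b and the highest Htr3a of its own. Since both genes were already seen to differ, the ratio was not tested.

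The Htr1 genes encode receptors that hold down transmitter release or excitability through Gi and Go. Htr1d came closest to a difference: its signal was 37.4 to 50.5 in dCINs (median 45.1) and 41.2 to 67.2 in MNs (median 52.4). Of the MN arrays, 4 stood above every dCIN array and 3 lay among them. The log2 difference was -0.22 (SE 0.12, 95% interval -0.48 to 0.03), with an adjusted p of 0.570 in limma and an exact permutation p of 0.0746, and so was not called.

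Htr1a, the autoreceptor of raphe neurons and a receptor on many target cells, was 32.03 to 51.7 in dCINs (median 46.7) and 37.5 to 58.7 in MNs (median 43.1). The log2 difference was 0.03 (SE 0.12), with a 95% interval of -0.23 to 0.29. For Htr1b, known on axon terminals, the range was 37.7 to 46.5 in dCINs (median 44.98) and 35.4 to 48.2 in MNs (median 45.5). It was the steadiest of the 12 probe sets, with an SD between arrays of a group of 0.136 on the log2 scale, and its difference was -0.03 (SE 0.09, 95% interval -0.23 to 0.16). Htr1f was 19.0 to 34.6 in dCINs (median 28.2) and 26.3 to 36.0 in MNs (median 28.2), and its difference was -0.08 (SE 0.13, 95% interval -0.35 to 0.18). Groups of all 3 genes overlapped, and for each the interval lay within a change of 1.41-fold (0.5 on the log2 scale) either way.

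The Htr2 genes encode the receptors through which serotonin depolarizes MNs in the cord, by way of Gq. Htr2a had the lowest signals of all 12 probe sets, at 13.9 to 22.4 in dCINs (median 17.1) and 12.4 to 18.8 in MNs (median 14.4). The groups overlapped, and the log2 difference of 0.24 (SE 0.13, 95% interval -0.03 to 0.504) was not called, with an adjusted p of 0.566 in limma. A dCIN level up to 1.42-fold that of MNs lay within this interval.

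Htr2c was read by a pair of probe sets that gave much the same result. M21410_s_at was 38.1 to 56.4 in dCINs (median 42.6) and 32.4 to 58.3 in MNs (median 38.6), with a log2 difference of 0.08 (SE 0.14, 95% interval -0.22 to 0.38). U35315_at was 20.3 to 39.2 in dCINs (median 25.8) and 20.5 to 29.8 in MNs (median 24.3), with a difference of 0.06 (SE 0.13, 95% interval -0.22 to 0.34). The groups overlapped on both.

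Htr7, the Gs-coupled receptor of the list that the array measured, had the probe set with the widest spread. On L22558_at signals were 28.1 to 95.0 in dCINs (median 58.6), 33.4 to 69.1 in MNs (median 47.4) and 14.6 to 84.4 in MIX (median 48.1). The highest MIX array was 5.79 times the lowest, and the SD between arrays of a group was 0.639 on the log2 scale, against 0.431 for the next probe set and under 0.3 for 8 of the 12. With that spread the difference of 0.31 between dCINs and MNs (SE 0.24, 95% interval -0.20 to 0.83) was not called, and the data leave room for a level in dCINs up to 1.77-fold that of MNs. The second probe set, U68491_at, was 18.8 to 29.9 in dCINs (median 22.0) and 17.3 to 24.0 in MNs (median 21.7), with a difference of 0.13 (SE 0.11, 95% interval -0.11 to 0.38).

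Counted together, the 10 probe sets without a call had differences of -0.22 to 0.31, 7 above 0 and 3 below, with limma adjusted p-values of 0.566 to 0.997 and none with an unadjusted p under 0.05. For 8 of the 10 the 95% interval lay within 0.5 on the log2 scale either way. The exceptions were Htr2a and the L22558_at probe set of Htr7. Most of these signals were near or below the array medians, so the intervals bound signals and not transcript levels. A further 3 probe sets for Htr4 and Htr5a, which were not on the list, had differences of -0.17 to 0.16 and no call, with 0 at an unadjusted p under 0.05.

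**Figure D3:**
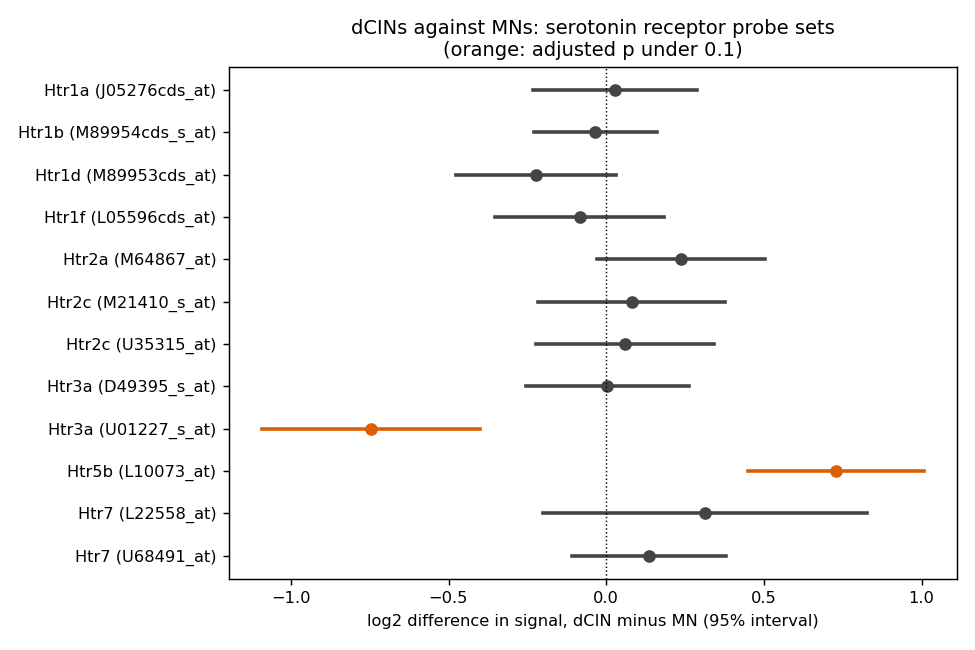
Log2 difference in signal, dCIN minus MN, of each serotonin receptor probe set (points) with its 95% interval from limma (lines), 7 arrays against 7. Orange marks an adjusted p under 0.1, which holds for Htr5b (0.73) and the U01227_s_at probe set of Htr3a (-0.75); the other intervals include 0.

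The MIX arrays, taken at random from the ventral horn, served as the control samples of the study, and were set against each labelled group in a fit over all 22 arrays. These comparisons share their MIX arrays with each other and their labelled arrays with the comparison above. No serotonin receptor was called in either: 0 of 12 against dCINs, where 0.476% of all probe sets were called, and 0 of 12 against MNs, where 0.952% were. At an unadjusted p under 0.05 there was 1 probe set in each comparison, Htr5b both times.

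Htr5b in MIX had lowest, median and highest signals of 33.3, 44.1 and 61.5 (mean 45.4 ± 10.5, SD, n = 8). Of the 8 MIX arrays, 6 stood above every MN array and 4 lay within the dCIN range, with 0 above it. The log2 difference was -0.40 (SE 0.14) for MIX minus dCIN, with a limma adjusted p of 0.409, and 0.32 (SE 0.14) for MIX minus MN, with an adjusted p of 0.412. Htr3a (U01227_s_at) in MIX was 52.2, 78.0 and 158 (mean 92.2 ± 38.4). There were 3 MIX arrays above every dCIN array, at 111, 135 and 158, and 4 below every MN array. The difference was 0.31 (SE 0.21) for MIX minus dCIN, adjusted p = 0.907, and -0.43 (SE 0.21) for MIX minus MN, adjusted p = 0.412, both in limma. The mean log2 signal of MIX lay between those of dCINs and MNs for 4 of the 12 probe sets, these being Htr5b, Htr3a (U01227_s_at), Htr1d and Htr7 (U68491_at). The share over all probe sets is not given here, so this count is a description only.

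Htr2c on U35315_at had its highest mean in MIX, where it read 23.0, 30.7 and 59.5 (lowest, median and highest). The difference of 0.33 from MNs (SE 0.16) had an adjusted p of 0.412 in limma and that of 0.27 from dCINs (SE 0.16) one of 0.846. A single MIX array, number 7, held the 59.5, and the next MIX array was 33.1. The same array was the highest MIX array for Htr1f (45.3) and Htr2a (21.1) and the lowest for Htr7 on L22558_at (14.6).

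Since MIX arrays hold cells of unknown type in unknown shares, Htr3a and Htr5b were set against Slc18a3 and Slc32a1 over the 8 MIX arrays. The 4 relations were tested on log2 values by exact permutation over 40320 pairings, and p-values were adjusted over the 4. Htr3a with Slc18a3 gave Pearson's r = 0.636 (permutation p = 0.0923, adjusted 0.176) and Spearman's rho = 0.548 (p = 0.171, adjusted 0.288), and r was 0.535 without the 2 arrays farthest from the median of Slc18a3. With Slc32a1 the values for Htr3a were r = -0.697 (permutation p = 0.0467, adjusted 0.176) and rho = -0.50 (p = 0.216, adjusted 0.288), and r was -0.433 without the 2 farthest arrays. Htr5b gave r = 0.572 with Slc32a1 (permutation p = 0.132, adjusted 0.176) and rho = 0.738 (p = 0.0458, adjusted 0.183), and r was 0.328 without 2 arrays. With Slc18a3 it gave r = 0.0815 (permutation p = 0.842) and rho = -0.048 (p = 0.935), and r was 0.349 without 2 arrays. No relation passed 0.05 after adjustment. Those of Htr3a and Htr5b with Slc32a1 were weaker without the 2 farthest arrays. Leaving these out also narrows the range of the marker, which tends to lower r, so whether single arrays carried the relations cannot be told.

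**Figure D4:**
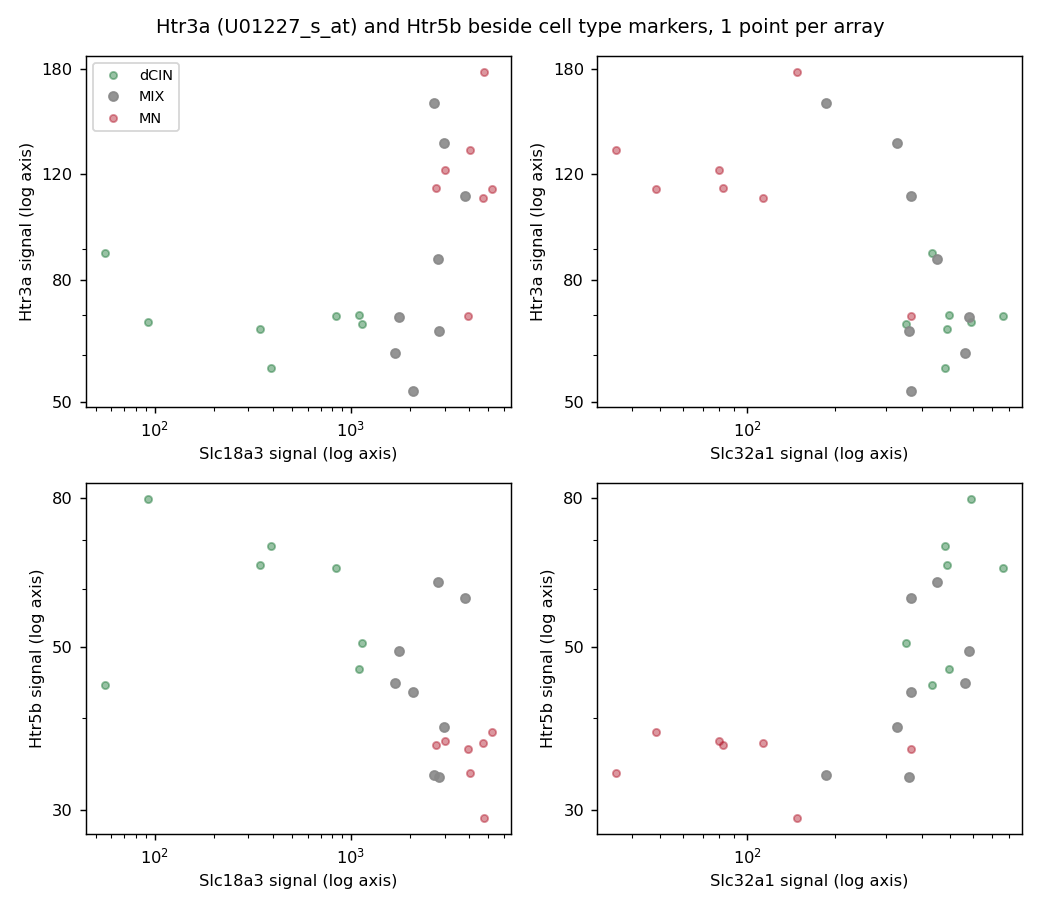
Signals of Htr3a (U01227_s_at, top) and Htr5b (bottom) against the MN marker Slc18a3 (left) and the inhibitory marker Slc32a1 (right), 1 point per array, all axes logarithmic. Grey points are MIX, green dCINs and red MNs; over the 8 MIX arrays r was 0.636 and -0.697 for Htr3a and 0.0815 and 0.572 for Htr5b. The MN point among the dCIN points at top right is MN array 3.

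The genes whose log2 signal ran most like that of the called receptors over all 22 arrays were named by rank of Pearson's r, as a description: the points share their group differences, arrays and normalization. For Htr3a (U01227_s_at) these were Ngfr, the low-affinity neurotrophin receptor (r = 0.768), Bcl2, a survival protein (0.765), and Kcna1, a potassium channel (0.716). With the group means taken off, the same pairs had r of 0.634, 0.643 and 0.552 over the 22 arrays together. The spread of Htr3a was widest in MIX (SD 0.578 on the log2 scale, against 0.402 in MNs and 0.187 in dCINs). Likeness inside each group alone was not tested. For Htr5b they were Hcrtr2 and Hcrtr1, the orexin receptors (r = 0.726 and 0.690), and Penk, the enkephalin precursor (0.703), and with the group means taken off r was 0.357, 0.503 and 0.336. The gene that ran most opposite to Htr3a was again Hcrtr2, with r of -0.829, and the gene most opposite to Htr5b was again Ngfr, with r of -0.704. The last of these was -0.172 with the group means taken off, whereas the first was -0.748. Htr7 on L22558_at, chosen for its spread after its values were seen, ran most like Atp1b3 and Atp1b1, beta subunits of the sodium pump (r = 0.763 and 0.746), and most opposite to AFFX_Rat_GAPDH_M_at (-0.777), a control probe set in the middle of the Gapdh transcript that serves to check RNA and amplification quality. With the group means taken off the 3 values were 0.766, 0.736 and -0.761. Against the Gapdh controls at the other ends of the transcript, AFFX_Rat_GAPDH_3_at and AFFX_Rat_GAPDH_5_at, r was 0.425 and -0.241. The part of RNA quality or amplification in the spread of this Htr7 probe set was not tested.

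Genes that make, move and break down serotonin gave no call between dCINs and MNs. The array held 11 probe sets for 6 of the 11 genes listed, with a median difference of -0.14 and 0 of 11 at an unadjusted p under 0.05. The smallest p-values belonged to Slc18a2, the vesicular monoamine transporter (-0.21, SE 0.10), Slc6a4, the serotonin transporter (-0.15, SE 0.10), and Ddc, the decarboxylase that forms serotonin (-0.14, SE 0.10). Each of these genes had a second probe set, at 0.01 (SE 0.11) for Slc18a2, 0.01 (SE 0.10) for Slc6a4 and 0.21 (SE 0.16) for Ddc, so that no gene of the 3 gave the same sign on both of its probe sets.

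Downstream of the receptors, 15 probe sets covered 6 of 35 listed genes of G proteins and their regulators, and 0 of them were called (median 0.02). Gnb1 and Gnb2, beta subunits, had differences of 0.33 (SE 0.14) and -0.54 (SE 0.24), both at an unadjusted p under 0.05, each on 1 probe set (U88324_g_at and rc_AA817892_at). The other 4 Gnb1 probe sets gave 0.28 (SE 0.16), 0.05 (SE 0.38), 0.00 (SE 0.25) and -0.54 (SE 0.44), so the probe sets of this gene did not share a direction. Effectors of cAMP and phospholipase C signalling had 18 probe sets for 8 of 37 genes, with 1 call (median -0.03). This was Prkcb, a protein kinase C activated downstream of Gq, on X04139_s_at. Its lowest, median and highest signals were 740, 914 and 1265 in dCINs and 161, 409 and 704 in MNs, with no overlap, a difference of 1.38 (SE 0.26) and a limma adjusted p of 0.00509. The other 2 Prkcb probe sets were at 0.31 (SE 0.20, adjusted p = 0.669) and -0.08 (SE 0.17, adjusted p = 0.885), and neither was called. Itpr1, the calcium release channel, was at 0.19 (SE 0.14) on M64698_s_at and between -0.03 and 0.06 on its other 4 probe sets.

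Channels that serotonin acts on in neurons had 21 probe sets for 12 of 21 genes and 0 calls (median -0.01). Scn8a, a sodium channel, was at 0.79 (SE 0.33, adjusted p = 0.365) on AF049239_s_at and 0.18 (SE 0.14) on its second probe set. Kcnk3, a leak potassium channel, was at -0.29 (SE 0.14) on AF031384_at and -0.13 (SE 0.09) on its second, and Cacna1g, a T-type calcium channel, was at -0.20 (SE 0.10). The other monoamine receptors, for noradrenaline and dopamine, had 16 probe sets for 12 of 15 genes and 1 call (median -0.09). Adra1d, an alpha-1 adrenergic receptor, was called on M60654_at, where it was 26.0, 36.5 and 79.5 in dCINs and 69.5, 108 and 181 in MNs (lowest, median and highest), with some overlap. The difference was -1.46 (SE 0.27, limma adjusted p = 0.00509). Its second probe set, AF071014mRNA_s_at, was 61.1 to 294 in dCINs and 96.8 to 483 in MNs, with a difference of -0.40 (SE 0.42, adjusted p = 0.754), and was not called. Drd5 was at -0.18 (SE 0.14) and Adra1a at -0.24 (SE 0.20), neither called. Each of these lists thus held 0 or 1 call in 11 to 21 probe sets, where 3.81% of all probe sets were called, and the median difference over all probe sets was -0.03.

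**Figure D5:**
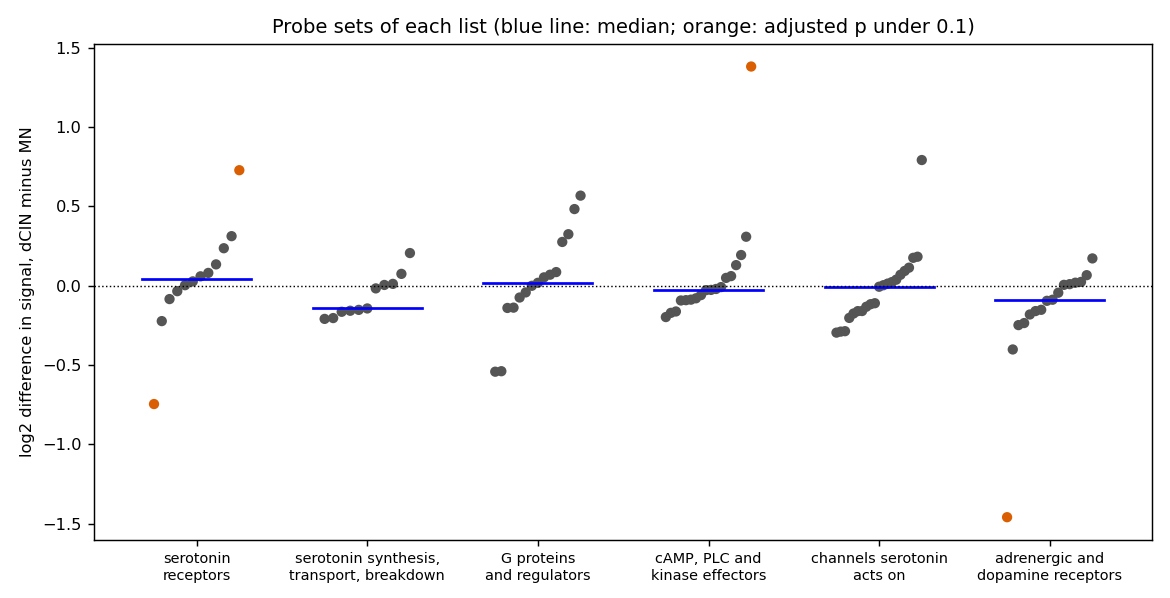
Log2 difference in signal, dCIN minus MN, of every probe set of the serotonin receptors and of the 5 other lists, in order within each list. The blue line is the list's median and orange marks an adjusted p under 0.1: Htr5b and Htr3a among the serotonin receptors, Prkcb (X04139_s_at) among the effectors and Adra1d (M60654_at) among the adrenergic and dopamine receptors.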

How the data were processed

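RNA of 22 samples was measured on RN_U34 arrays, and samples were grouped by their titles. To make the deposited intensity values, the authors took the perfect match probes through global background subtraction, quantile linear transformation, quantile projection normalization and Li-Wong summaries on a linear scale, then, by the study's methods, subtracted the lowest value of the whole table, which enlarges ratios between samples, most of all for dim probe sets; the submitters' processing notes name affy. The genome build is not given in the sources used here. Such normalization gives all arrays one distribution, so a shift of all genes together cannot be seen, and Li-Wong values of dim probe sets hold background. Probes were named from the platform annotation: 961 of 1050 probe sets had 1 symbol, 7 had several and 82 had none.

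The log2 of these values was fitted by limma (version 3.58.1, R 4.3.3; lmFit, then eBayes without trend or robust prior): dCINs against MNs over their 14 arrays, and MIX contrasts from 3 group means over 22. A call needed an adjusted p under 0.1 (Benjamini-Hochberg, over the whole table). Single values and correlations were tested by exact permutation, two-sided, with scipy 1.17.1. A limma comparison of dCINs and MNs was tested on simulated log2 values with known differences. The number of arrays limits the precision, since no count stands behind a signal; the labels call the samples biological replicates.

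Named were all serotonin receptor probe sets, the 3 probe sets of other genes most correlated with each called one (the most opposite one was added after the values were seen), and the called and up to 3 smallest-p probe sets of each pathway list. The members and lists were chosen with earlier results of these data known. Alternatives were an offset of 32, a filter at a mean log2 of 6, other normalizations, variance models and weights, covariates, the replicate block, subsets of arrays, and leaving out each array.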

Additional observations from a re-analysis of the deposited data

Results flagged for a closer look

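In 4 of 36 groups of a serotonin receptor probe set, 1 array lay far from the rest of its group by Dixon's criterion on log2 values, where chance gives about 1.8. For Htr1a, dCIN array 6 was lowest at 32.03 (next 42.3), and MN array 7 was highest at 58.7 (next 43.6). For Htr1f, MN array 7 was again highest at 36.0 (next 29.2). For Htr2c on U35315_at, MIX array 7 was highest at 59.5 (next 33.1). None of these probe sets was called in any comparison.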

How the results depend on the processing

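Htr3a (U01227_s_at) kept its direction and its call under every alternative run. Its log2 differences, dCIN minus MN, were -0.93 to -0.55, with limma adjusted p-values of 0.000785 to 0.0930. The -0.93 came from leaving out dCIN and MN arrays 3, which were chosen after seeing the data. Htr5b kept its direction under all of them (0.39 to 0.86) and lost its call only among arrays 1 and 2, an alternative chosen after seeing the data (0.39, adjusted p = 0.147); the filter at a mean log2 of 6 left it out. The number of serotonin receptor probe sets called was therefore 1 with that filter and 1 among arrays 1 and 2. Leaving out each array in turn kept the 2 calls every time, at 0.66 to 0.80 for Htr5b and -0.87 to -0.64 for Htr3a. Calls over all probe sets, 40 in the main analysis, were 76 with array weights, 83 with numbers 1 and 2 against 3 to 7 as a covariate, 144 among arrays 1 and 2, and 31 to 55 leaving out 1 array. At an adjusted p under 0.05 MIX gave 1 call against dCINs and 2 against MNs; leaving out 1 array gave 1 to 8 (lowest without dCIN array 3 or 4, or MIX array 1, 5 or 7) and 2 to 14 (lowest without MIX array 3, 4, 6 or 8, or MN array 1, 5, 6 or 7), in place of 5 and 10, and no serotonin receptor in any. The cause of these changes was not tested.

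Small differences without a call changed sign. Htr1a was -0.0207 with array weights, -0.0768 with cell number as a covariate, -0.0355 among arrays 3 to 7, -0.00279 without the MN samples of over 200 cells and -0.0325 without dCIN and MN arrays 3. Htr1b was 0.0328 with cell number and 0.0188 without those MN samples. Htr2c on U35315_at was -0.0183 with cell number and -0.0497 without arrays 3, and on M21410_s_at -0.17 among arrays 1 and 2. Htr3a on D49395_s_at was -0.18 among arrays 1 and 2 and -0.0189 without arrays 3, and Htr7 on U68491_at -0.0323 with cell number. Leaving out 1 array, the ranges that crossed 0 were -0.00974 to 0.105 for Htr1a, -0.143 to 0.000840 for Htr1f, -0.0383 to 0.120 for Htr2c on U35315_at, -0.0644 to 0.0508 for Htr3a on D49395_s_at, -0.0755 to 0.149 for the Htr2c ratio, and r of -0.31 to 0.21 for Htr5b with Slc18a3 in MIX. The Htr3a ratio stayed at 0.56 to 0.84 (adjusted p of 0.00350 to 0.0122 by the exact test). Over the MIX arrays, r of Htr3a with Slc32a1 was -0.44 without array 5 and -0.83 without array 6, the latter with an adjusted permutation p of 0.0492.

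Same-numbered dCIN and MN arrays correlated in their deviations from the group means by -0.19 to 0.53, and 2 of 7 best with their own number. The labels name no pairs, so the main fit used none. What same-numbered arrays may share was not tested. With the replicate block 55 probe sets were called, both receptors among them (adjusted p of 0.0171 for Htr5b and 0.0759 for Htr3a in limma), and MIX gave 7 and 9 calls. Dim signals limit these data: most receptors lay near or below the array medians, and the values used here carry no detection call.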

Other observations

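MN array 3 and dCIN array 3 held the most extreme signals over the 12 serotonin receptor probe sets. MN array 3 was the highest or lowest MN array for 7 of them (lowest for 6), and dCIN array 3 was the highest or lowest dCIN array for 6, against 0 to 5 in each other array. Both arrays were picked after seeing the data. MN array 3 was the lowest MN array for Htr3a (U01227_s_at). The dCIN array 3 was the highest dCIN array for Htr3a and the lowest for Htr5b. Leaving both arrays out was therefore bound to widen the differences. With both left out, Htr3a (U01227_s_at) differed by -0.93 and Htr5b by 0.80 on the log2 scale, both still called in limma. These values are no separate evidence for either difference.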
